A study of Triticum aestivum with 16 samples.

Results

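Actin, elongation factor 1-alpha (EF1a), glyceraldehyde-3-phosphate dehydrogenase (GAPDH) and ubiquitin are 4 genes of the wheat control list of this array, all in common use as reference genes. Their probe sets were found by identifier, as wheat control probe sets carrying the names actin, ef1a, gapdh or Ubiquitin. This gave 15 of the 61289 probe sets in the table, of which 4 were for actin, 3 for EF1a, 5 for GAPDH and 3 for ubiquitin. Each gene had probe sets for the 3′, middle and 5′ parts of its transcript. Actin had a further middle set, and GAPDH a further middle and a further 5′ set, whose identifiers end in _x_at, the maker's mark for probes that may also match other transcripts. The middle EF1a set ends in _s_at, the mark for probes shared by several transcripts.

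RNA came from wheat (Triticum aestivum) stem tops, that is the peduncle and the internode under it with the leaf sheath, collected at anthesis from plants grown rain-fed in the field. The 8 groups were the lines SB3, SB10, SB57, SB62, SB69, SB109, SB165 and SB169 of the Seri M82 x Babax population. Every line had 2 field replicates, and each replicate was hybridised to 1 array. No group received a treatment, no line is labelled as a control, and the parents were not among the samples. Each sample pooled 7 to 8 main-tiller stems of 1 plot, and the soil was wet from heavy rain about 2 days before. A difference between lines in bulk tissue can come from less RNA per cell or from fewer cells of a type, and these cannot be told apart here. Of 12 tissue markers on a list, 3 had a probe set with a gene name. PSBO of the photosystem and a lipid transfer protein (LTP) gave mean log2 signals of 13.35 and 12.43. Another LTP probe set spanned 4.26 log2 units between lines, from 9.83 in SB10 to 5.56 in SB165 (limma adjusted p = 2.99e-08), and its relation to the values below was not tested. The other 9 markers were not checked.

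Array medians lay between 23.56 and 25.02 intensity units, and replicates of a line correlated at 0.984 to 0.995 over all wheat probe sets. The number of arrays, 2 per line, limits the precision of every value below.

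Actin is the subunit of the thin filaments of the cytoskeleton. EF1a delivers aminoacyl-tRNA to the ribosome, GAPDH catalyses an oxidation step of glycolysis, and ubiquitin is the small protein that marks others for breakdown by the proteasome. These genes are used to scale other transcripts because cells of most tissues need their products, and probe sets along the same transcript serve as a check of RNA integrity and labelling. That use rests on the transcript varying little between the samples compared.

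The named probe sets differed widely in brightness. The 3 ubiquitin sets were among the brightest on the array, with mean log2 intensities of 11.73 (3′), 12.33 (middle) and 12.95 (5′), and 91 of 61115 wheat probe sets had a higher mean than the 5′ set. The 12 sets for actin, EF1a and GAPDH had means from 2.73 to 6.22, and 5 of them lay below the wheat median of 4.61. Trp, a Bacillus transcript that the standard mix of added poly-A RNAs lacks, has 6 probe sets on the array, and their values ran from 2.26 to 3.88. The means of 5 reference-gene sets lay within that span, namely 3′ actin (3.65), 3′ EF1a (3.71), 5′ EF1a (3.61), 3′ GAPDH (3.37) and middle GAPDH (2.73). For both of these GAPDH sets every array lay at or below the highest trp value. Signal depends on the probes, so these brightness values do not rank the genes by transcript abundance. No detection calls were used.

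**Figure D1:**
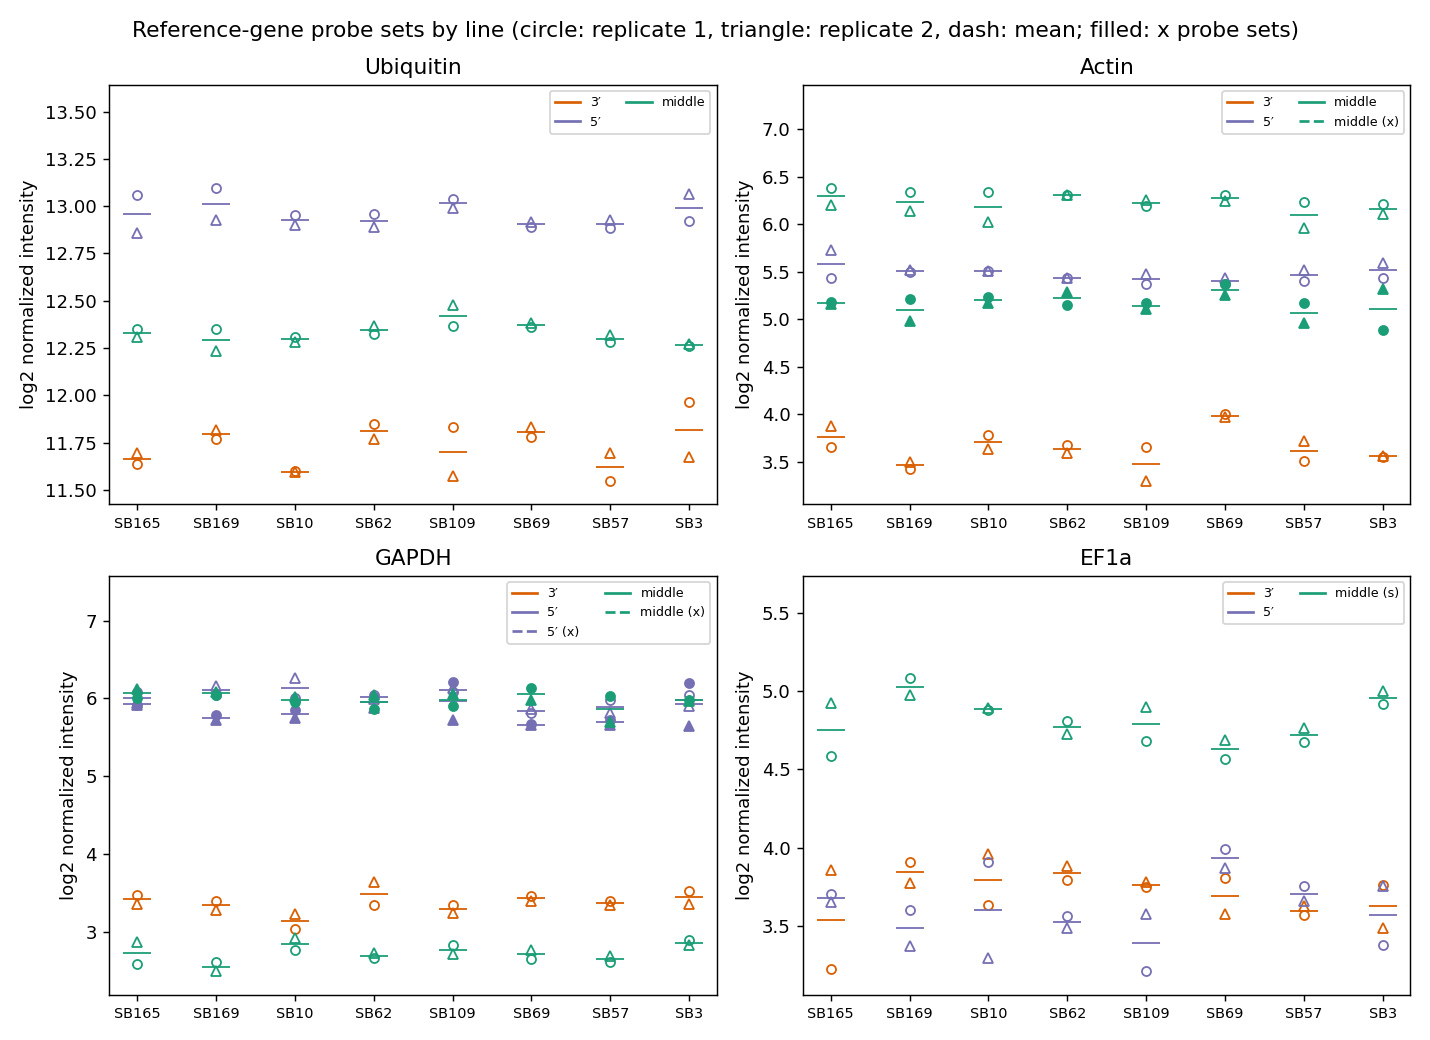
Log2 normalized intensity (y axis) of the 15 reference-gene probe sets in each line (x axis), with circles for field replicate 1, triangles for replicate 2, short dashes for the line mean and filled symbols for sets ending in _x_at. The ubiquitin sets stay between 11.55 and 13.10 in every array, while 3′ actin reaches its highest values in both SB69 arrays (4.0 and 3.97).

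In limma's F-test over the 8 line means, 0 of the 15 probe sets passed the threshold of an adjusted p below 0.05, which 3.99% of the 61140 fitted probe sets did. Their adjusted p-values ran from 0.322 for 3′ actin to 0.949 for 5′ actin. At an unadjusted p under 0.05 the count was 1 of 15, namely 3′ actin, against 15.2% of all fitted probe sets. Line means of the 15 sets spanned 0.11 to 0.54 log2 units, with a median of 0.29, against a median of 0.37 for wheat probe sets. Among the 10 sets for the other wheat genes on the control list (sucrose synthase, glucose-6-phosphate dehydrogenase, CYP86-TA and 18S ribosomal RNA, itself a common reference), the median span was 0.67 and 1 passed. That set, the middle of sucrose synthase, spanned 0.65.

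The 5′ and middle ubiquitin sets had the narrowest spans of the 15. Spans were also narrower among wheat probe sets of similar mean, with medians of 0.22 beside the 5′ set and 0.30 beside the middle set, against 0.37 over all. At the middle set, replicates 1 and 2 read 12.35 and 12.31 in SB165, 12.35 and 12.24 in SB169, 12.31 and 12.28 in SB10, 12.33 and 12.37 in SB62, 12.37 and 12.48 in SB109, 12.36 and 12.38 in SB69, 12.28 and 12.32 in SB57, and 12.26 and 12.27 in SB3. SB109 was highest and SB3 lowest, 0.16 log2 units or 1.11-fold apart (limma adjusted p = 0.86). The pooled replicate SD of this set was 0.044, so replicates of a line lay close together, and only 2.22% of the 90 wheat probe sets with a mean within 0.25 log2 units had a lower one. The largest gap between neighbouring lines in the order was 0.05, and so slightly above that SD.

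At the 5′ ubiquitin set the values were 13.06 and 12.86 in SB165, 13.10 and 12.93 in SB169, 12.95 and 12.90 in SB10, 12.96 and 12.89 in SB62, 13.04 and 12.99 in SB109, 12.89 and 12.92 in SB69, 12.88 and 12.93 in SB57, and 12.92 and 13.06 in SB3. The lines overlapped, and the distance between the replicates of SB165 was larger than the whole span of line means, which was 0.11 (1.08-fold). The limma adjusted p was 0.933. Neighbouring lines in the order were at most 0.03 apart, against a pooled replicate SD of 0.081. Of the 55 wheat probe sets with a mean within 0.25 log2 units, 43.6% had a lower SD.

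The 3′ ubiquitin set read 11.64 and 11.69 in SB165, 11.77 and 11.82 in SB169, 11.60 and 11.59 in SB10, 11.85 and 11.77 in SB62, 11.83 and 11.57 in SB109, 11.78 and 11.83 in SB69, 11.55 and 11.70 in SB57, and 11.96 and 11.67 in SB3. SB3 was highest and SB10 lowest by line mean, and the arrays of most lines overlapped. The span was 0.22 (1.17-fold), the pooled replicate SD 0.108 and the limma adjusted p 0.675. Neighbouring lines were at most 0.09 apart, within that SD. The highest and lowest lines thus differed between the 3 ubiquitin sets, with SB109 highest at the middle and 5′ sets and SB3 highest at the 3′ set.

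The 95% intervals bound how far ubiquitin could depart in a single line. Over the 8 comparisons of a line with the mean of the other 7, the widest bound was 0.25 log2 units (1.19-fold) at the middle set, 0.23 (1.17-fold) at the 5′ set and 0.33 (1.26-fold) at the 3′ set. These intervals are not adjusted for the number of lines. They hold for the normalized values, and a change shared by most transcripts would have been removed by the authors' normalization.

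**Figure D2:**
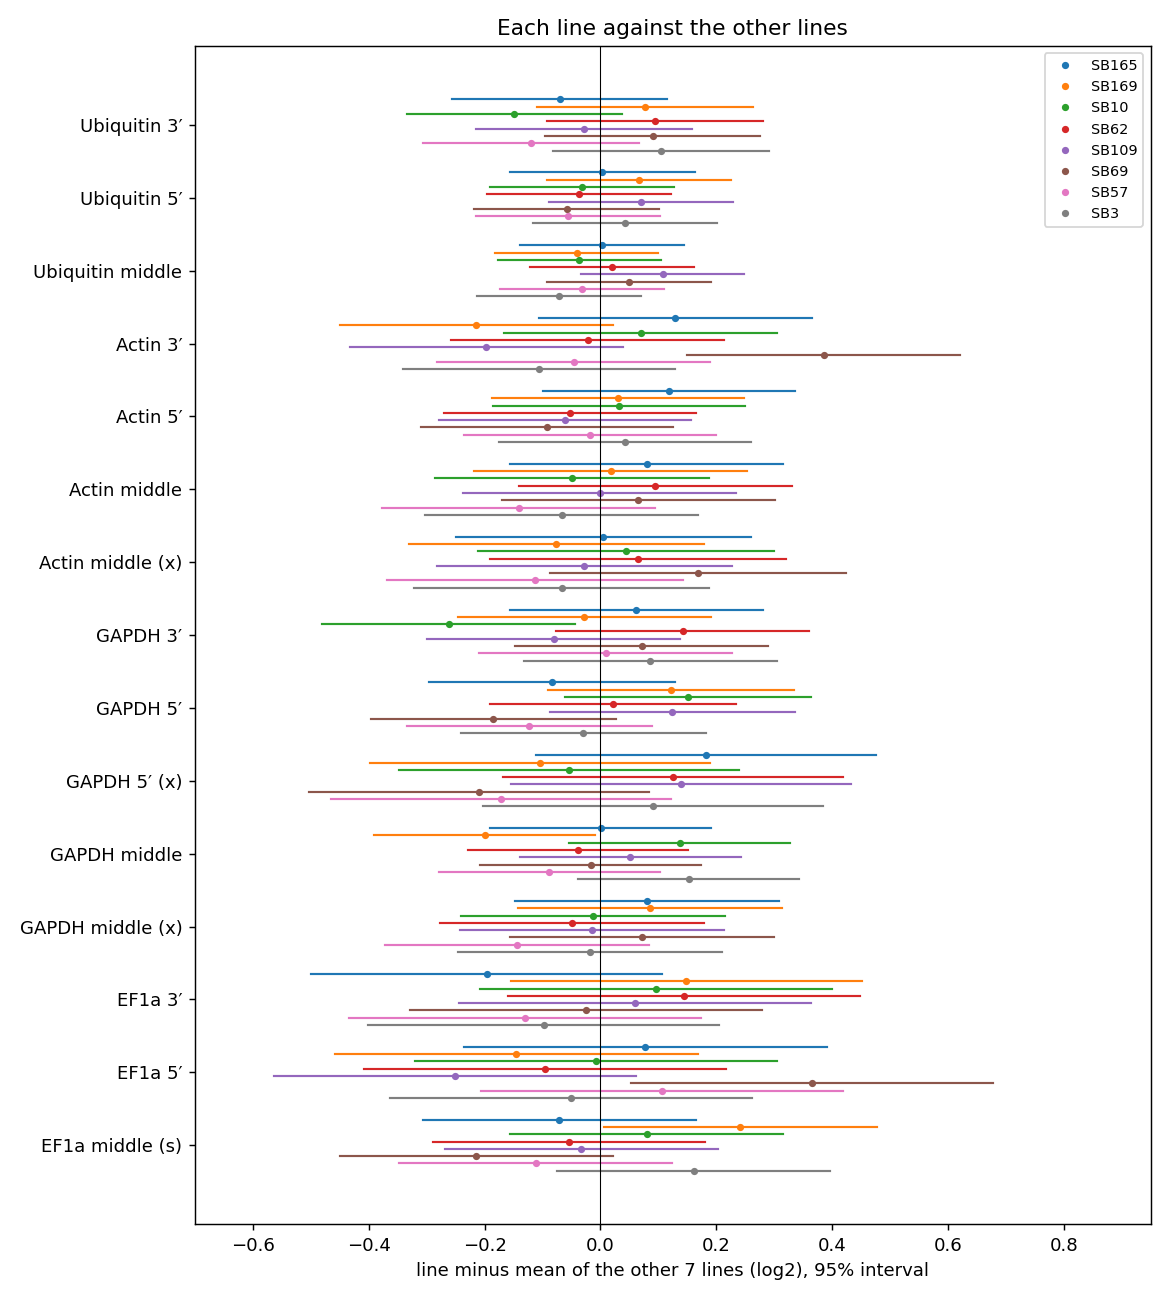
Difference between a line and the mean of the other 7 lines (x axis, log2) with its 95% interval from limma, for the 8 lines (colours) at each of the 15 reference-gene probe sets (y axis). The ubiquitin intervals stay within 0.33 of 0, and the interval of 3′ actin in SB69 (0.15 to 0.62) lies farthest to one side of 0.

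Of the 120 comparisons of a line with the other 7 over the 15 sets, 0 passed at an adjusted p under 0.05 in limma, against 1.13% of such comparisons over all fitted probe sets. By line, from the highest share to the lowest, it was 1.65% for SB10, 1.55% for SB62, 1.18% for SB169, 1.14% for SB69, 1.04% for SB57 and SB3, 0.774% for SB109 and 0.687% for SB165. At an unadjusted p under 0.05 there were 5 of 120, against 10.4% of all. These were 3′ actin in SB69, 3′ GAPDH in SB10, 5′ EF1a in SB69, middle GAPDH in SB169 and middle EF1a in SB169, and 4 of these 5 concern probe sets in the trp range.

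Actin gave the clearest departure of a single line, at its dimmest probe set. The 3′ set read 4.0 and 3.97 in SB69, against 3.30 to 3.87 in the 14 arrays of the other lines. Both SB69 arrays lay above every other array, a pattern found in that line at 2.44% of all fitted probe sets. SB69 was 0.39 log2 units above the mean of the other lines (SE 0.11, 95% interval 0.15 to 0.62, limma adjusted p = 0.116), so the difference did not pass. The gap between SB69 and the next line, SB165, was 0.22, while the pooled replicate SD was 0.13, and each of the other gaps in the order was smaller.

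The brighter actin sets did not show SB69 in the same place throughout. At the middle set SB69 read 6.31 and 6.25, against 5.97 to 6.39 in the other arrays, and SB62 was highest with 6.31 on both. At the middle _x_at set SB69 was again highest, with 5.37 and 5.25, inside the span of the other arrays (4.89 to 5.32) for its lower value. At the 5′ set SB69 was lowest, with 5.37 and 5.43, and SB165 highest, with 5.44 and 5.73. The spans of line means at these 3 sets were 0.21, 0.25 and 0.18, and the limma adjusted p-values were 0.924, 0.913 and 0.949.

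GAPDH had 3 brighter sets, the 5′ and both _x_at sets, and its other sets lay in the trp range. The 5′ set read 5.92 and 5.94 in SB165, 6.05 and 6.17 in SB169, 6.00 and 6.26 in SB10, 6.04 and 6.00 in SB62, 6.09 and 6.13 in SB109, 5.81 and 5.86 in SB69, 5.98 and 5.81 in SB57, and 6.05 and 5.90 in SB3. SB10 was highest and SB69 lowest, 0.29 apart (1.23-fold, limma adjusted p = 0.632). The middle _x_at set spanned 0.20 over the lines (limma adjusted p = 0.927), the least of the GAPDH sets.

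The 5′ _x_at set of GAPDH was uneven between the replicates of some lines. It read 5.72 in replicate 2 and 6.21 in replicate 1 of SB109, and 5.65 in replicate 2 and 6.19 in replicate 1 of SB3. Its pooled replicate SD was 0.193, larger than in 67.9% of wheat probe sets of similar mean, while that of the other 5′ set was 0.092, larger than in 5.09%. At the dim 3′ set both SB10 arrays (3.04 and 3.24) lay below the 14 others (3.25 to 3.64). Together with 3′ actin in SB69, this made 2 of 120 pairs of a line and a set in which both arrays of the line lay outside all others, against 2.37% over all fitted probe sets (1.23% above and 1.14% below).

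EF1a had its widest span at a dim probe set. The 5′ set spanned 0.54 log2 units from SB69 (3.99 and 3.87) to SB109 (3.21 and 3.57), the largest span of the 15, with a pooled replicate SD of 0.215 (limma adjusted p = 0.622). SB10 read 3.91 in replicate 1 and 3.30 in replicate 2, so the replicates of 1 line lay farther apart than the line means. The 3′ set spanned 0.30, and its lowest line, SB165, held values of 3.22 and 3.86.

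The middle EF1a set was the steadiest of the 3 between replicates. It read 4.58 and 4.92 in SB165, 5.08 and 4.97 in SB169, 4.88 and 4.89 in SB10, 4.81 and 4.73 in SB62, 4.68 and 4.89 in SB109, 4.57 and 4.69 in SB69, 4.67 and 4.76 in SB57, and 4.91 and 5.0 in SB3. SB169 and SB3 were high and SB69 low, with a span of 0.40 (1.32-fold) and a pooled replicate SD of 0.115 (limma adjusted p = 0.57). Neighbouring lines were at most 0.10 apart, within that SD.

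Wheat probe sets outside the control list also carry the name of this gene. TEF1, the gene for elongation factor 1-alpha, had 2 probe sets in the annotation, both ending in _x_at, with mean log2 signals of 12.56 and 11.76. The probe sets for EF1a on this array therefore disagreed widely in brightness, from 3.61 for the control list's 5′ set to 12.56. SB69 was the lowest line at both TEF1 sets, with means of 12.38 and 11.60, as it was at the middle set of the control list, with 4.63. The highest line was SB3 (12.72) at the brighter TEF1 set, and SB169 at the dimmer TEF1 set (11.97) and at the middle control set (5.03). The TEF1 sets spanned 0.34 and 0.37 and did not pass (limma adjusted p = 0.553 and 0.595).

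Over the 8 line means, the middle control set correlated with the dimmer TEF1 set at r = 0.889, with an exact permutation p of 0.00377 (0.102 adjusted over 27 relations). The rho was 0.905, with an exact permutation p of 0.00456 (0.123 adjusted). Without SB169 and SB69, r was 0.687. For the brighter TEF1 set r was 0.78, at an exact permutation p of 0.0206 (0.185 adjusted), and 0.662 without SB69 and SB3. Its rho was 0.833, at an exact permutation p of 0.0154 (0.208 adjusted). These relations were computed after the data were seen and did not pass after adjustment. The 3′ set of the control list was highest in SB169 too, whereas at the 5′ set SB69 was highest.

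**Figure D3:**
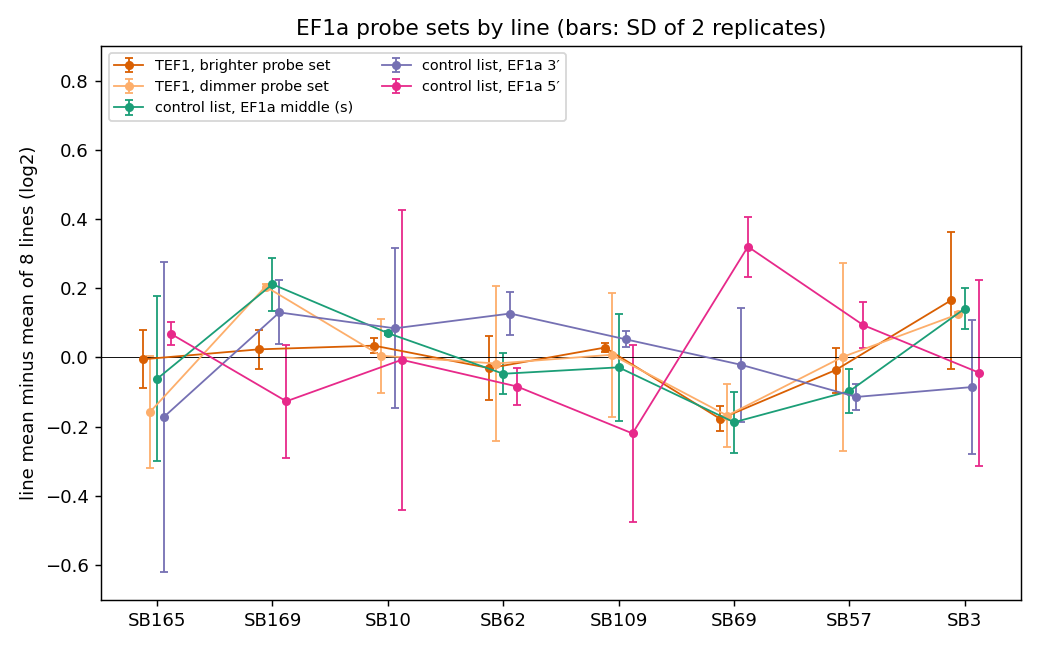
Line mean minus the mean of the 8 lines (y axis, log2) for the TEF1 probe sets and the 3 EF1a probe sets of the control list, with the SD of 2 replicates as bars. Lines only join the points. SB69 is lowest at both TEF1 sets and the middle EF1a set and highest at the 5′ EF1a set.

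The order of the lines was compared between probe sets along the same transcript, and r took both signs. Of the 22 pairs of probe sets of the same gene, 14 had a positive Pearson r over the 8 line means, with a median of 0.05 and a span from -0.64 to 0.81. By gene, r was positive in 3 of 6 pairs for actin, 1 of 3 for EF1a, 7 of 10 for GAPDH and 3 of 3 for ubiquitin. The ubiquitin signs depended on the setting: r of the 3′ and middle sets was -0.02 in replicate 1 alone, -0.27 in replicate 2 alone and -0.16 after centring on array medians, and r of the 3′ and 5′ sets was -0.29 in replicate 2 alone. None passed after adjustment over the 27 relations, and 1 had an unadjusted exact permutation p under 0.05. The intraclass correlation estimates the share of variance that lies between lines. Its median was 0.08 over the reference-gene sets and 0.14 over wheat probe sets. It was negative in 7 of the 15 reference-gene sets and in 35.9% of wheat probe sets, so a negative value is not particular to them. Where lines differ so little, r over line means can be low even for sets that measure the same transcript. These r values therefore cannot decide whether the sets of a gene track each other.

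The highest r was that of 3′ and middle _x_at actin, 0.809 over 8 lines, with a two-sided exact permutation p of 0.0161 (0.185 adjusted). Its rho was 0.738, with an exact permutation p of 0.0458 (0.248 adjusted), and r was 0.438 without SB169 and SB69. The lowest r was that of 3′ and 5′ GAPDH, -0.644, at an exact permutation p of 0.0733 (0.329 adjusted). Its rho was -0.595, at an exact permutation p of 0.132 (0.446 adjusted), and r was -0.20 without SB10 and SB109. For ubiquitin, r was 0.258 between the 3′ and 5′ sets (exact permutation p = 0.514, adjusted 0.816), 0.038 between the 3′ and middle sets (exact permutation p = 0.93, adjusted 0.93) and 0.05 between the 5′ and middle sets (exact permutation p = 0.906, adjusted 0.93). The ubiquitin values for rho were 0.071, -0.048 and -0.19, with exact permutation p-values of 0.882, 0.935 and 0.665 (adjusted 0.977 each). Without the 2 farthest lines the ubiquitin r values were -0.262, -0.443 and -0.616.

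The difference between the 3′ and the 5′ set of a gene is read here only between arrays, since the sets have different probes. SB69 had the highest mean difference at ubiquitin, actin and GAPDH and the lowest at EF1a, and this pattern was noticed in the data, so the place of SB69 was not tested. For actin the difference was -1.37 and -1.46 in SB69, above all 14 other arrays (-2.18 to -1.72). For GAPDH it was -2.35 and -2.45 in SB69, against -3.02 to -2.36 in the other arrays, of which 3 lay above the lower SB69 value. For ubiquitin it was -1.11 and -1.09 in SB69, against -1.42 to -0.96, with 2 others above the lower SB69 value. The mean in SB69 exceeded that of the other 7 lines by 0.48, 0.26 and 0.15 log2 units at actin, GAPDH and ubiquitin, and the replicate SD of the difference was 0.133, 0.122 and 0.15.

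The same difference was read at other transcripts. Sucrose synthase and glucose-6-phosphate dehydrogenase also had their highest 3′ minus 5′ difference in SB69, at 4.66 against 4.32 and at 1.17 against 0.88 as the mean of the other 7 lines. CYP86-TA did not, with SB69 in place 5 of 8. For sucrose synthase the SB69 arrays read 4.39 and 4.93, against 4.03 to 4.92 in the others, with a replicate SD of 0.305. Of those others, 4 lay above the lower SB69 value. For glucose-6-phosphate dehydrogenase the SB69 arrays read 1.00 and 1.34, against 0.63 to 1.12, with a replicate SD of 0.147. There 3 others lay above the lower SB69 value. Over the 8 line means, the ubiquitin difference correlated with that of sucrose synthase at r = 0.407, at an exact permutation p of 0.332 (0.738 adjusted), and at -0.199 without SB62 and SB69. Its rho was 0.476, at an exact permutation p of 0.243 (0.656 adjusted). With glucose-6-phosphate dehydrogenase r was 0.429, at an exact permutation p of 0.291 (0.738 adjusted), and -0.217 without the same lines. There rho was 0.238, at an exact permutation p of 0.582 (0.925 adjusted). These relations, chosen after the data were seen, did not pass and rested on SB62 and SB69. Of the 4 bacterial poly-A RNAs added at labelling, SB69 ranked 1 for thr, 2 for dap, 6 for lys and 8 for phe from the highest. The 3′ sets of actin and GAPDH lay in the trp range, whereas those of ubiquitin and sucrose synthase were bright. The part of RNA integrity or labelling in the SB69 values was not tested.

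**Figure D4:**
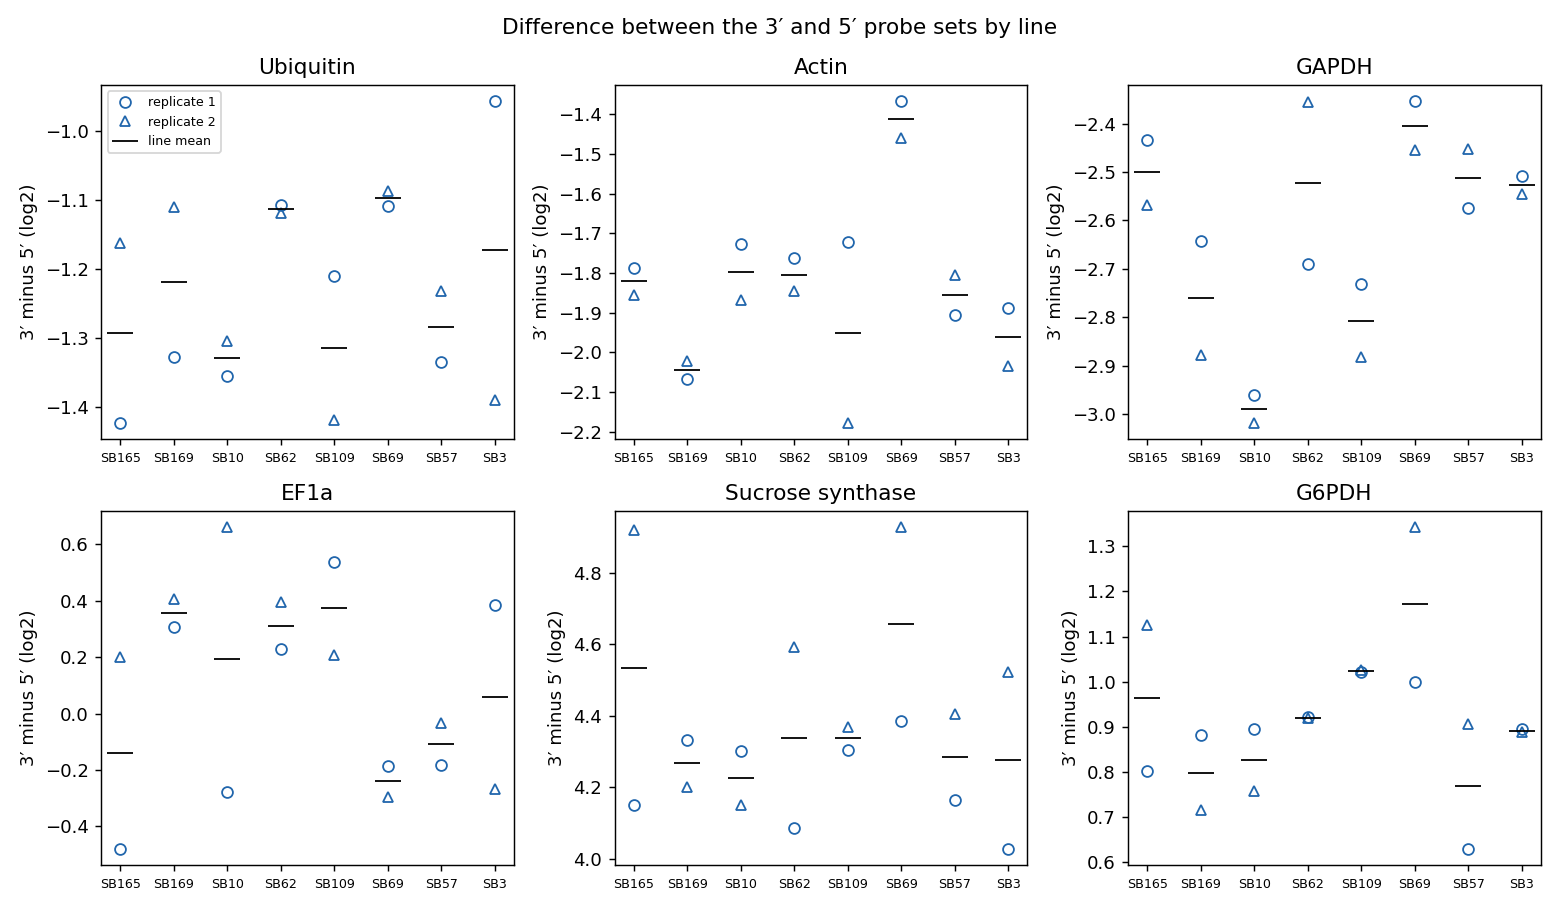
Log2 difference between the 3′ and 5′ probe sets (y axis) by line (x axis) for the 4 reference genes, sucrose synthase and glucose-6-phosphate dehydrogenase (G6PDH), with circles and triangles for the replicates and dashes for line means. SB69 has the highest mean in every panel except EF1a, where it has the lowest (-0.24).

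Set beside wheat probe sets with a mean within 0.25 log2 units, 13 of the 15 reference-gene sets had a span of line means below the median, and 12 had a replicate SD below it. The exceptions in span were 3′ actin and 5′ EF1a, at percentiles 79.3 and 82 of their neighbours. The lowest percentiles were 2.85 for 5′ actin, 3.64 for 5′ ubiquitin, 5.59 for middle _x_at GAPDH, 6.67 for middle ubiquitin and 6.74 for middle actin. The median percentile over the 15 was 23.6, against 82.7 over the 10 sets of the other named control genes. Sets of the same gene share a transcript, so these are not 15 independent values, and the percentiles carry no test. Of the similar wheat probe sets, 0.873% to 11.7% passed the F-test, the highest share being that beside 3′ ubiquitin.

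**Figure D5:**
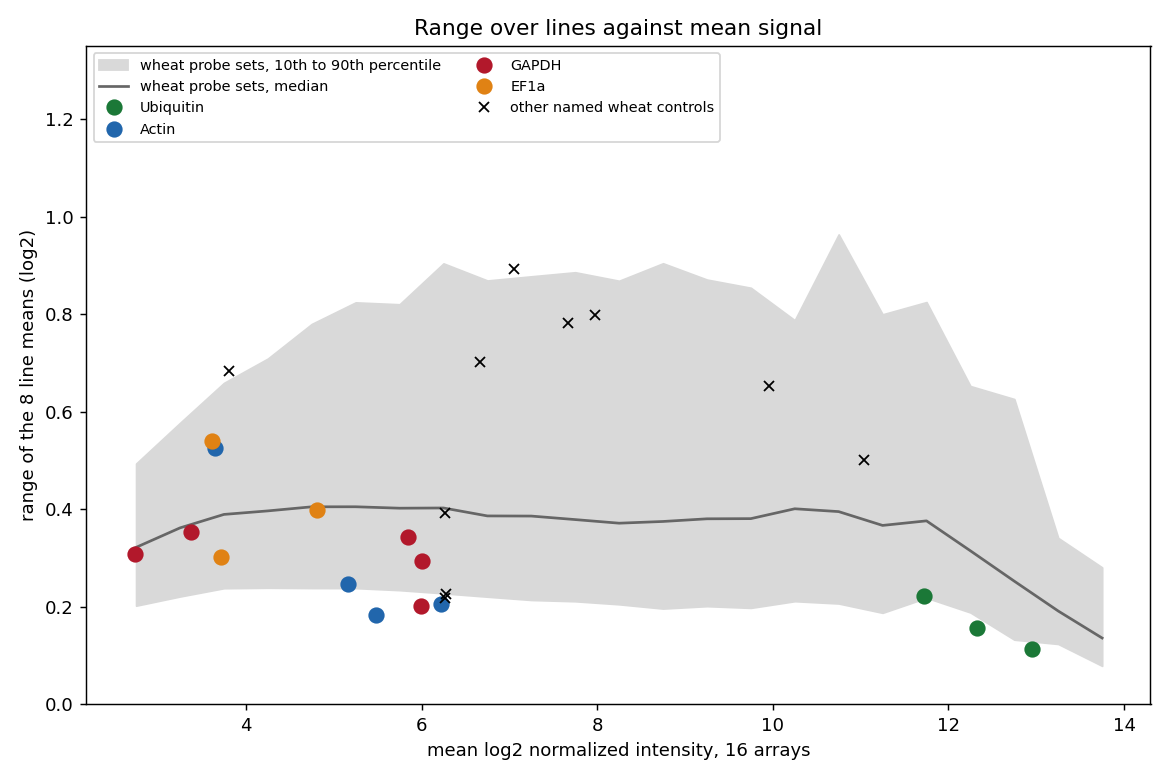
Range of the 8 line means (y axis, log2) against the mean log2 intensity over 16 arrays (x axis) for the reference-gene probe sets (coloured points) and the other named wheat controls (crosses), over the median and the 10th to 90th percentile of wheat probe sets in steps of mean intensity. All 3 ubiquitin points and most actin and GAPDH points lie below the median line, and 3′ actin (0.52) and 5′ EF1a (0.54) lie above it.

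Between field replicates the ubiquitin sets differed little. Replicate 2 minus replicate 1, with line as a block, was 0.00 at the middle set (95% interval -0.09 to 0.10), -0.04 at the 5′ set (-0.15 to 0.06) and -0.04 at the 3′ set (-0.16 to 0.08). None of the 15 sets passed in limma, where 0.00164% of all fitted probe sets did, and 1 of 15 had an unadjusted p under 0.05, against 8.33% of all. That set, 5′ _x_at GAPDH, averaged 5.75 in replicate 2 and 5.94 in replicate 1 (difference -0.20, SE 0.08, limma adjusted p = 0.559). It was lower in replicate 2 in 8 of 8 lines, as were 0.605% of all fitted probe sets. The other 5′ GAPDH set averaged 6.01 in replicate 2 and 5.99 in replicate 1. Middle actin averaged 6.16 in replicate 2 and 6.29 in replicate 1 and was higher in replicate 2 in 1 of 8 lines (limma adjusted p = 0.609).

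Ubiquitin varied less between arrays than the added RNAs. Over the 16 arrays the 3 ubiquitin sets spanned 0.41 (3′), 0.24 (middle) and 0.24 (5′) log2 units from lowest to highest, whereas the 36 probe sets of the poly-A RNAs spanned 0.90 to 1.57 and the 26 of the hybridisation controls 0.43 to 1.40. The median replicate SD was 0.115 over the 15 reference-gene sets and 0.417 over the poly-A sets. Over the 6 trp sets it was 0.121, and their median span of line means was 0.20, against 0.29 over the reference-gene sets. A low spread is thus not particular to the reference-gene sets. These controls differ from the wheat sets in brightness, and no test was made of the difference.

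For a measure of stability each gene was taken as the mean of its probe sets, and averaging can itself lower the spread. The SD over 16 arrays was 0.070 for the GAPDH mean, against 0.107 to 0.191 for its single sets. No wheat genes averaged in the same way were set beside the values below. The stability measure M, the mean SD over 16 arrays of the log2 difference between a gene and each of the others, was 0.093 for ubiquitin, 0.102 for actin, 0.105 for GAPDH and 0.114 for EF1a, with a lower value for a steadier gene. With the brightest probe set of each gene in place of the mean, M was 0.139 for ubiquitin and 0.173 for actin. The ubiquitin mean ran from 12.24 to 12.41 over the arrays. Scaling every array to it gave 2582 probe sets that differed among the lines, and scaling to all 4 genes gave 2444, against 2442 without scaling (limma, adjusted p under 0.05). RMA compresses the differences of dim probe sets. Spans were also narrow among the brightest wheat probe sets, with a median of 0.25 at means of 12.5 to 13.0, against 0.40 at 5.5 to 6.0. The M values therefore do not show that any of the 4 transcripts varied little.

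For each gene's brightest set, the wheat probe set with the most similar line pattern was sought among 30558 wheat probe sets at or above the median mean. The highest r over the 8 line means was 0.982 for 5′ ubiquitin, 0.977 for middle actin, 0.953 for 5′ GAPDH and 0.994 for middle EF1a. An r over 0.9 was reached by 16, 100, 12 and 84 probe sets for ubiquitin, actin, GAPDH and EF1a. With 8 points and a search of this size these values are a description only, and none of the 4 closest probe sets has a gene in the annotation.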

How the data were processed

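The authors deposited normalized intensity values for every probe set. GCOS and RMA are named, per the submitters' processing notes, with neither versions nor order. Their linear scale was read from the values, and no source used here gives the step that undid RMA's log2. RMA equalizes distributions across arrays, which removes shared changes in signal, and compresses differences of dim sets.

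Values below 1 were raised to 1 before log2 was taken. Limma 3.58.1 (R 4.3.3) was fitted to 61115 wheat sets and 25 control sets named for wheat genes, with 1 mean per line, an intensity trend and Benjamini-Hochberg adjustment. Left out were 85 other controls and 64 reporter sets. Line was a block in the replicate comparison. Fits were tested on simulated data. Python 3.11.15 and scipy 1.17.1 gave correlations. The comparison with wheat sets of similar mean used a window of 0.25 log2 units on either side.

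GEO's platform annotation gives 1 gene for 1273 probe sets and several for 0, and 59842 wheat sets have no entry. Of the 1273, 1272 matched the RefSeq gene table, the source of synonyms such as TEF1. Every reference-gene set was described, and for each gene's brightest set the wheat set with the highest r. Genes, lists and comparisons were chosen with earlier results of these data known. Values of 1 tissue marker and 1 housekeeping gene are not reported here. Each replicate was 1 pool of stems from 1 plot on 1 array. The limma p-values thus rest on a spread between replicates in which plot, pooling, labelling and array cannot be told apart. Limma moderated that spread over probe sets. Alternatives were other scalings, floors, filters and thresholds, the replicate block and arrays left out.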

Additional observations from a re-analysis of the deposited data

How the results depend on the processing

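In the 27 alternatives to the F-test none of the 15 reference-gene probe sets was called, and no comparison of a line with the others. Adjusted p-values for the F-test were 0.22 or higher. Some of these alternatives add no independent check. The threshold of 0.01 was applied to the same fit, and scaling to ubiquitin or to the 4 genes subtracted means of the tested sets themselves. With a floor of 16, the 5 sets in the trp range were constant and could not be called. The filter on dim sets left 10 of the 15 to test. None was called between field replicates in the 12 alternatives of that comparison. The count of differing probe sets among lines was 2925 with the replicate block, 1253 at an adjusted p under 0.01, 962 with a floor of 16 and 4327 without SB165 and SB3, the last added after the data were seen. Leaving out 1 array moved it from 1711 to 3978 (without SB3 replicate 1). The numbers were not taken as pairing the samples. Same-numbered arrays deviated together (r over 0.1) in 14 of 28 pairs of lines, with r from -0.295 to 0.536 and a median of 0.108. Between replicates 1 probe set of all passed, and 0 after centring on array medians and without the line block, and 0 to 3 with 1 line left out (2 without SB10, 3 without SB109, 0 without SB62 or SB3). The count of pairs with a positive r was 11 to 12 under other scalings and with single replicates, and 7 of 9 pairs with a floor of 16, where the other sets were constant. The span of the 3′ minus 5′ difference at actin was 0.585 to 0.764 with 1 array left out (0.764 without SB109 replicate 1), against 0.631, and that at GAPDH 0.46 after quantile normalization, against 0.59. M with the brightest sets was 0.173 for actin and 0.139 for ubiquitin. Apart from stricter thresholds and fewer samples, the cause was not tested. Signal near that of trp limits 5 of the 15 sets.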

Other observations

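A list of other housekeeping genes was drawn up by name after the data were seen. The annotation named 26 probe sets of 13 such genes, of which 4 passed the F-test (limma, adjusted p under 0.05), or 15.4%, against 3.99% of all fitted probe sets. Most of the 26 were bright, and the share passing depends on brightness. It was 8.97% of wheat probe sets with a mean near 7.98, 11.7% near 11.73 and 3.64% near 12.95. No share matched to the brightness of the 26 was computed, so 15.4% is not read as an excess. Their median span was 0.50 log2 units, and no test was made against the 15 sets above. Tubulin, the subunit of microtubules, had 10 probe sets (2 alpha and 8 beta), and SB10 was the highest line at all 10 and SB169 the lowest at 8. Their spans ran from 1.38-fold to 3.55-fold, and 2 passed, an alpha-tubulin set at 3.55-fold (log2 9.12 in SB10 and 7.29 in SB62, limma adjusted p = 0.000942) and a beta-tubulin set at 1.98-fold (13.11 in SB10 and 12.12 in SB169, limma adjusted p = 0.0124). For the other 8, limma adjusted p-values ran from 0.0694 to 0.522. Related tubulin sets can share transcripts, so the 10 are not independent.

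TBP1, the TATA-binding protein of transcription initiation, spanned 1.80-fold, from SB169 (7.57) to SB10 (6.72), in the opposite order to the tubulins (limma adjusted p = 0.0203). SAHH, which hydrolyses S-adenosylhomocysteine, passed at 1 of 2 sets, with 13.09 in SB10 and 12.16 in SB62 (limma adjusted p = 0.0331), and the other set gave an adjusted p of 0.0584. Narrow spans were found for phosphoglycerate kinase (Pgk-1, 0.20 log2 units) and the ribosomal protein RPL9 (0.21), whose adjusted p-values in limma were 0.698 and 0.649.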
